A study of Mus musculus with 8 samples.

Results

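The genes described here encode the initiation and elongation factors of cytosolic translation. They were taken by a rule on names, as every gene whose symbol starts with Eif or Eef followed by a digit, without the 4 Eif2ak kinases of eIF2 alpha and without the Y-linked *Eif2s3y*, which gave 82 of the 22520 genes and assembled transcripts in the table (68 Eif and 14 Eef symbols). CD8+ T cells were purified by negative magnetic selection from the spleens of wild-type mice and kept for 6 days with anti-CD3 and anti-CD28 antibodies and interleukin-2, a culture used to drive T cells toward exhaustion. Diisopropylamine dichloroacetate (DADA), an inhibitor of pyruvate dehydrogenase kinase, at 40 µM or the same volume of its solvent DMSO was present from day 3, and RNA was taken on day 6 for bulk RNA-seq (4 DMSO libraries and 4 DADA libraries). Both groups had the same stimulation and no genetic change was named for either, although the labels enter them as a control and a model genotype. The 4 libraries of a group are called biological replicates, but whether they came from separate mice is not stated. The p-values therefore set a group difference against variation between libraries, which need not be variation between mice.

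Translation starts when eIF2 brings the initiator tRNA to the small ribosomal subunit, together with eIF1, eIF1A, eIF3 and eIF5, while eIF4F, made of the cap-binding protein eIF4E, the scaffold eIF4G and the helicase eIF4A, brings in the mRNA. After the start codon is found, eIF5B brings in the large subunit, eEF1A then delivers each aminoacyl-tRNA with the help of its exchange factor eEF1B, and eEF2 moves the ribosome along. Activated T cells are known to enlarge this machinery, and many of its mRNAs, like those of ribosomal proteins, start with a run of pyrimidines (a TOP motif) through which mTOR controls their translation.

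Values are FPKM, that is fragments relative to the length of the transcript and to the total mapped in that library. FPKM gives no read counts, and steps between low values gave an estimated depth of 13840000 to 16540000 mapped fragments per DMSO library and 14760000 to 18760000 per DADA library. Of the 9 CD8 T cell markers looked for, 8 were in the table and summed to 1110 to 1140 FPKM with DMSO and 1330 to 1370 FPKM with DADA. The markers moved unequally: the mean of *Cd2* rose most (170 to 287 FPKM), and that of *Cd5* alone fell (84.5 to 66.3 FPKM). B cell markers summed to at most 3.54 FPKM, with *Pax5* at 0, and 3 CD4 T cell markers to at most 0.718 FPKM, 6 myeloid markers to at most 0.188 FPKM, 5 erythroid and platelet markers to at most 0.169 FPKM and 3 dendritic cell markers to at most 0.168 FPKM. The 3 NK cell markers summed to 13.3 to 14.2 FPKM with DMSO and 10.1 to 11.2 FPKM with DADA, nearly all of it *Eomes*, which CD8 T cells also make. The part of these shifts in the results was not tested. In a bulk sample, fewer cells of a type and less RNA of a gene per cell cannot be told apart, and FPKM gives the share of the RNA pool rather than the amount per cell.

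The gene starts of 8 members are shown, chosen after their values were seen: *Eef1a1*, *Eif3f* and *Eef2* are TOP mRNAs in textbooks, *Eif3l* and *Eif2s3x* have a pyrimidine run and fell, and *Eif1*, *Eif1b* and *Eif4a1* rose. Each line gives the 10 bases before and the 20 bases from the RefSeq start on the coding strand (build GRCm38.p6, a reference build that need not be the one used for the FPKM values), and capitals mark a run of C followed by at least 4 further C or T, reading on to the end of the run, whose first base lies within 10 bases of that start. Where more than 1 run qualifies, as in *Eif3l*, only the first is in capitals. Not shown are *Eef1b2* and *Eif4b*, TOP mRNAs in textbooks that fell without such a run, and *Eif2b2*, which rose with one.
Eef1a1 (chr9:78481705-78481734, minus strand): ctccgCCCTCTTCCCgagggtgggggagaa
Eif3f (chr7:108934405-108934434, plus strand): tctaggCTCTCTCTCTTTCTCggcaagatg
Eif3l (chr15:79075213-79075242, plus strand): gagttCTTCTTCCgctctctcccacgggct
Eif2s3x (chrX:94212632-94212661, minus strand): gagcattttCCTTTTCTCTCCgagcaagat
Eef2 (chr10:81176621-81176650, plus strand): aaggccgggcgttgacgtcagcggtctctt
Eif1 (chr11:100319939-100319968, plus strand): ggcgtcacaggggcggctatataagtgaat
Eif1b (chr9:120492596-120492625, plus strand): gcgcggggctaaatacgcggcgccggccat
Eif4a1 (chr11:69672404-69672433, minus strand): gtaacgtcacgtcgagttgcagagcgccgg

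A RefSeq start is an annotated position and not a cap site measured in these cells, and GENCODE M21 puts the outermost start of each of these genes except *Eef2* and *Eif4a1* at another base. Of the 59 members tested, 46 had a promoter in the RefSeq table. A pyrimidine run of this kind stood at a listed start of 13 of these members (28.3%), where any listed start of a gene counted. Among genes with an entry, the shares were 36.2% of those tested, 33.3% of all and 60.7% of cytosolic ribosomal proteins. The run was found in 8 of 30 members that fell, in 1 of 6 that rose and in 4 of 10 that were not called. The motif CACGTG is its own reverse complement and is known as the E-box that MYC and related factors bind. It was within the 300 bases around the start in 13 members (28.3%), beside 12.1% of tested genes and 8.09% of all genes listed. It was in 6 of 30 members that fell, in 3 of 6 that rose (*Eif1b*, *Eif4a1* and *Eef2*) and in 4 of 10 that were not called. A match describes letters in a window, and neither binding nor start sites were measured.

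Most translation factor mRNAs were lower with DADA, by small and tightly measured steps. Of the 82 members, 59 passed the filter (4 or more libraries with 1 FPKM or more) and were tested with limma on log2(FPKM + 1), on which scale all changes below are given, with Benjamini-Hochberg adjustment over the 10666 genes and transcripts tested. At an adjusted p under 0.05, 38 of the 59 fell (64.4%, beside 35.3% of all genes tested), 7 rose (11.9%, beside 30.9%) and 14 were not called. In all, 45 members were called (76.3%), while 66.2% of all genes tested were, so that calls as such were common in this comparison. The median change of the members tested was -0.173, and that of all genes tested was -0.0196. The 4 DADA values lay all above or all below the 4 DMSO values for 43 of the 59 members (72.9%), beside 60.6% of all genes tested.

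No tested member changed by 1 or more, whereas 436 of the 10666 genes tested did. Whatever the direction, the median size of the change was 0.18 for the members and 0.207 for all genes tested. The falls reached 0.25 or more in 19 members, the rises did so in 3, and 17 members lay within 0.1 of no change. Such counts were not made over all genes tested. Transcripts of the members were abundant, and 27 of the 59 averaged 100 FPKM or more with DMSO and with DADA. They also varied little, with a median coefficient of variation of 2.95% among the DMSO libraries and 2.90% among the DADA libraries, beside 4.89% and 4.63% over all genes tested. Together the 82 members took 4.86%, 4.88%, 4.89% and 4.92% of the summed FPKM of the DMSO libraries and 4.13%, 4.11%, 4.19% and 4.14% of the DADA libraries. Without *Eef1a1*, the most abundant of them, the shares were 2.53% to 2.54% and 2.36% to 2.39%, so neither set of shares overlapped between the groups.

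**Figure D1:**
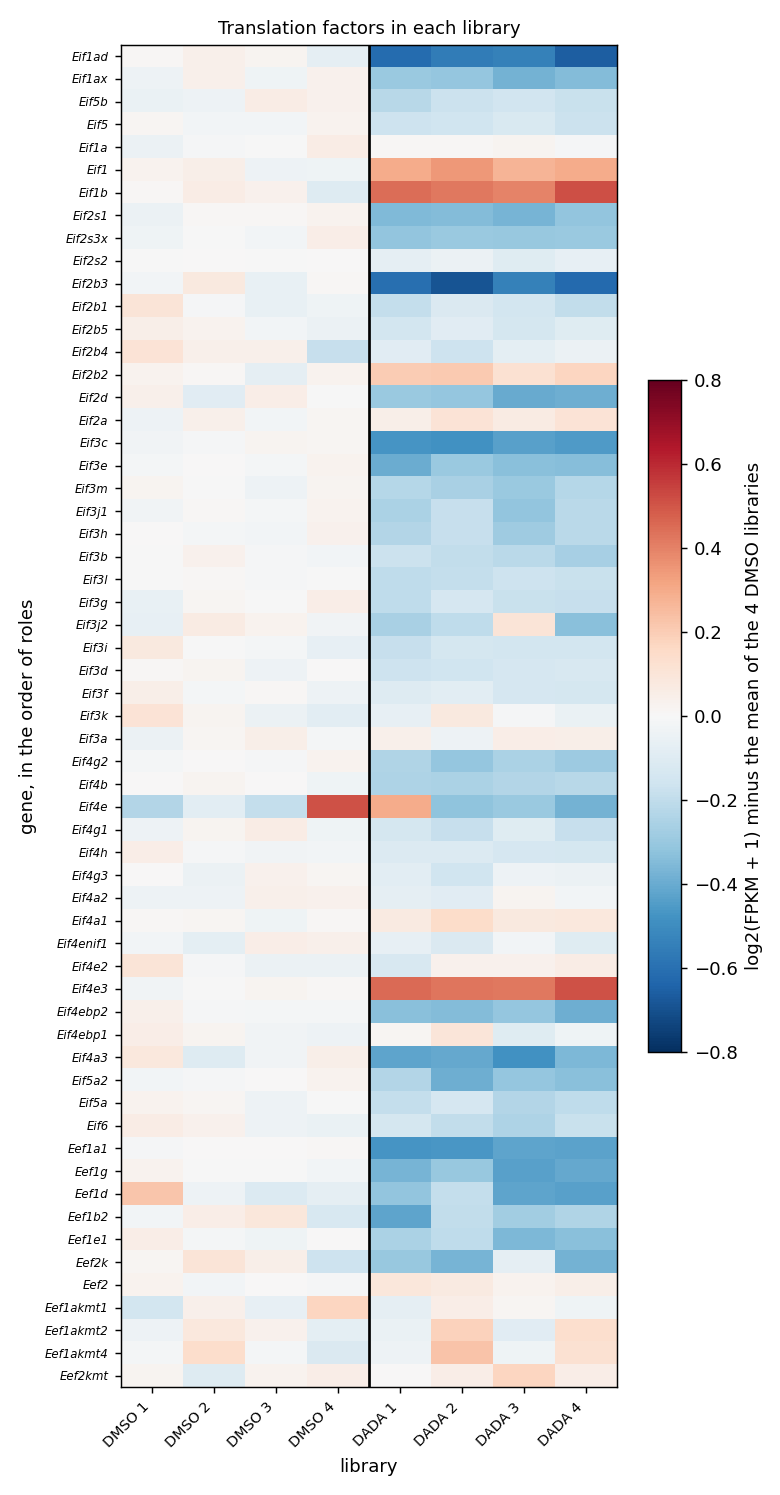
Each row is 1 of the 59 tested genes, in the order of their roles, and each column 1 of the 8 libraries; the color gives log2(FPKM + 1) minus the mean of the 4 DMSO libraries, from blue (lower) to red (higher). Most rows turn blue in all 4 DADA libraries, *Eif1*, *Eif1b*, *Eif2b2* and *Eif4e3* turn red, and *Eif4e* stands out as the row in which DMSO 4 and DADA 1 are higher than the other libraries of their groups.

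The remaining 23 members were not tested. Of these, 17 were listed at 0 in every library, among them 15 of the 16 numbered *Eif1ad* copies, the oocyte form *Eif4e1b*, and *Eef1a2*, the eEF1A of neurons and muscle. The other 6 were *Eif1ad7*, *Eif4a3l1*, *Eif4a3l2*, *Eef1akmt3*, *Eef1ece2* and *Eif4ebp3*, the third eIF4E-binding protein, and none reached 1 FPKM in any library. *Eef1ece2* had 0 FPKM in DMSO 1 and in all 4 DADA libraries and at most 0.158 FPKM in the other DMSO libraries, and it shares exons with *Eef1akmt4*, so its fragments are not certain to be its own.

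The factors that find the start codon moved in both directions. eIF1, which keeps the scanning ribosome from stopping at a wrong codon, is encoded by *Eif1* and the nearly identical *Eif1b*, and both rose. *Eif1* (ENSMUSG00000035530) stood at 453, 458, 433 and 434 FPKM with DMSO and at 546, 565, 536 and 545 FPKM with DADA. The groups did not overlap, and the rise was 0.30 (SE 0.0265, limma adjusted p = 4.24e-06). *Eif1b* (ENSMUSG00000006941) was far lower at 21.7, 22.5, 22.1 and 19.98 FPKM with DMSO and 29.8, 29.3, 28.7 and 31.3 FPKM with DADA, a rise of 0.45 (SE 0.0417, adjusted p = 6.72e-06). Again every DADA library was above every DMSO library.

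eIF1A, the partner of eIF1 on the small subunit, also comes from a pair of genes, *Eif1a* and the X-linked *Eif1ax*. *Eif1ax* was at 31.0, 32.9, 31.2 and 32.7 FPKM with DMSO and at 25.9, 25.6, 24.4 and 24.9 FPKM with DADA, a fall of 0.33 without overlap (95% interval -0.40 to -0.26, adjusted p = 7.06e-06). For *Eif1a* the values were 65.9, 67.6, 67.9 and 71.0 FPKM with DMSO and 68.4, 68.5, 69.3 and 67.6 FPKM with DADA. The DADA values of *Eif1a* lay inside the range of the DMSO values, and its difference was 0.01 with a 95% interval of -0.05 to 0.07. *Eif1ad* (ENSMUSG00000024841), which encodes a protein with an eIF1A-like domain, had the second largest fall of all members. Its values were 41.0, 41.8, 41.4 and 38.6 FPKM with DMSO and 26.1, 27.3, 27.7 and 25.4 FPKM with DADA, 0.655 times the DMSO mean (log2 change -0.59, SE 0.0361, adjusted p = 2.74e-07). The numbered copies of *Eif1ad* could share fragments with it, although 15 of the 16 were at 0.

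*Eif5* encodes the protein that triggers GTP hydrolysis by eIF2 once the start codon is found. It went from 207, 202, 202 and 209 FPKM to 183, 184, 188 and 182 FPKM, a fall of 0.15 (SE 0.0211, adjusted p = 0.000105) in which all 4 DADA libraries lay below all DMSO libraries. *Eif5b*, the GTPase of subunit joining, fell by 0.18 (32.4 ± 1.28 to 28.4 ± 0.561 FPKM, mean ± SD, n = 4 each, limma adjusted p = 0.000706).

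All 3 subunits of eIF2, the carrier of the initiator tRNA, were lower with DADA, though by unequal amounts. *Eif2s1* encodes the alpha subunit, the one that stress kinases phosphorylate. It stood at 85.9, 89.3, 89.3 and 90.5 FPKM with DMSO and at 69.1, 69.5, 68.3 and 71.1 FPKM with DADA, a fall of 0.35 (SE 0.0239, adjusted p = 6.73e-07). The gamma subunit gene *Eif2s3x* fell by 0.30 (92.9 ± 2.55 to 75.1 ± 0.449 FPKM, n = 4 each, limma adjusted p = 1.81e-06), and its Y-linked copy may share fragments with it. The beta subunit gene *Eif2s2* moved least, from 236 ± 0.82 to 224 ± 3.48 FPKM, a fall of 0.07 (adjusted p = 0.00759). That fall no longer passed the test when the libraries were rescaled to equal totals.

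eIF2B reloads eIF2 with GTP, and its 5 subunit genes did not move together. *Eif2b3* (ENSMUSG00000028683), the gamma subunit, had the largest fall of all members tested. It was at 45.5, 48.8, 44.4 and 46.5 FPKM with DMSO and at 30.1, 28.3, 31.5 and 29.7 FPKM with DADA, 0.646 times the DMSO mean (log2 change -0.61, SE 0.039, adjusted p = 3.78e-07). *Eif2b2* (ENSMUSG00000004788), the beta subunit, rose instead, from 32.3, 31.8, 30.1 and 32.2 FPKM to 36.4, 36.7, 34.4 and 35.7 FPKM. For *Eif2b2* every DADA value was above every DMSO value, and the rise was 0.18 (SE 0.0324, adjusted p = 0.000827). The alpha subunit gene *Eif2b1* fell by 0.16 (adjusted p = 0.00423), and *Eif2b5*, the catalytic epsilon subunit, by 0.12 (adjusted p = 0.0035). The delta subunit gene *Eif2b4* was not called (-0.10, 95% interval -0.23 to 0.03).

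Genes of the eIF2-independent initiator tRNA factors went apart. *Eif2a* (ENSMUSG00000027810) was at 70.7, 74.9, 71.6 and 73.6 FPKM with DMSO and at 75.1, 78.4, 76.1 and 78.6 FPKM with DADA, a rise of 0.08 (SE 0.0263, adjusted p = 0.0185). The groups were only just separate, and without DADA 4 the adjusted p was 0.054. *Eif2d* fell by 0.35 (40.2 ± 1.82 to 31.4 ± 1.21 FPKM, n = 4 each, limma adjusted p = 2.5e-05).

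**Figure D2:**
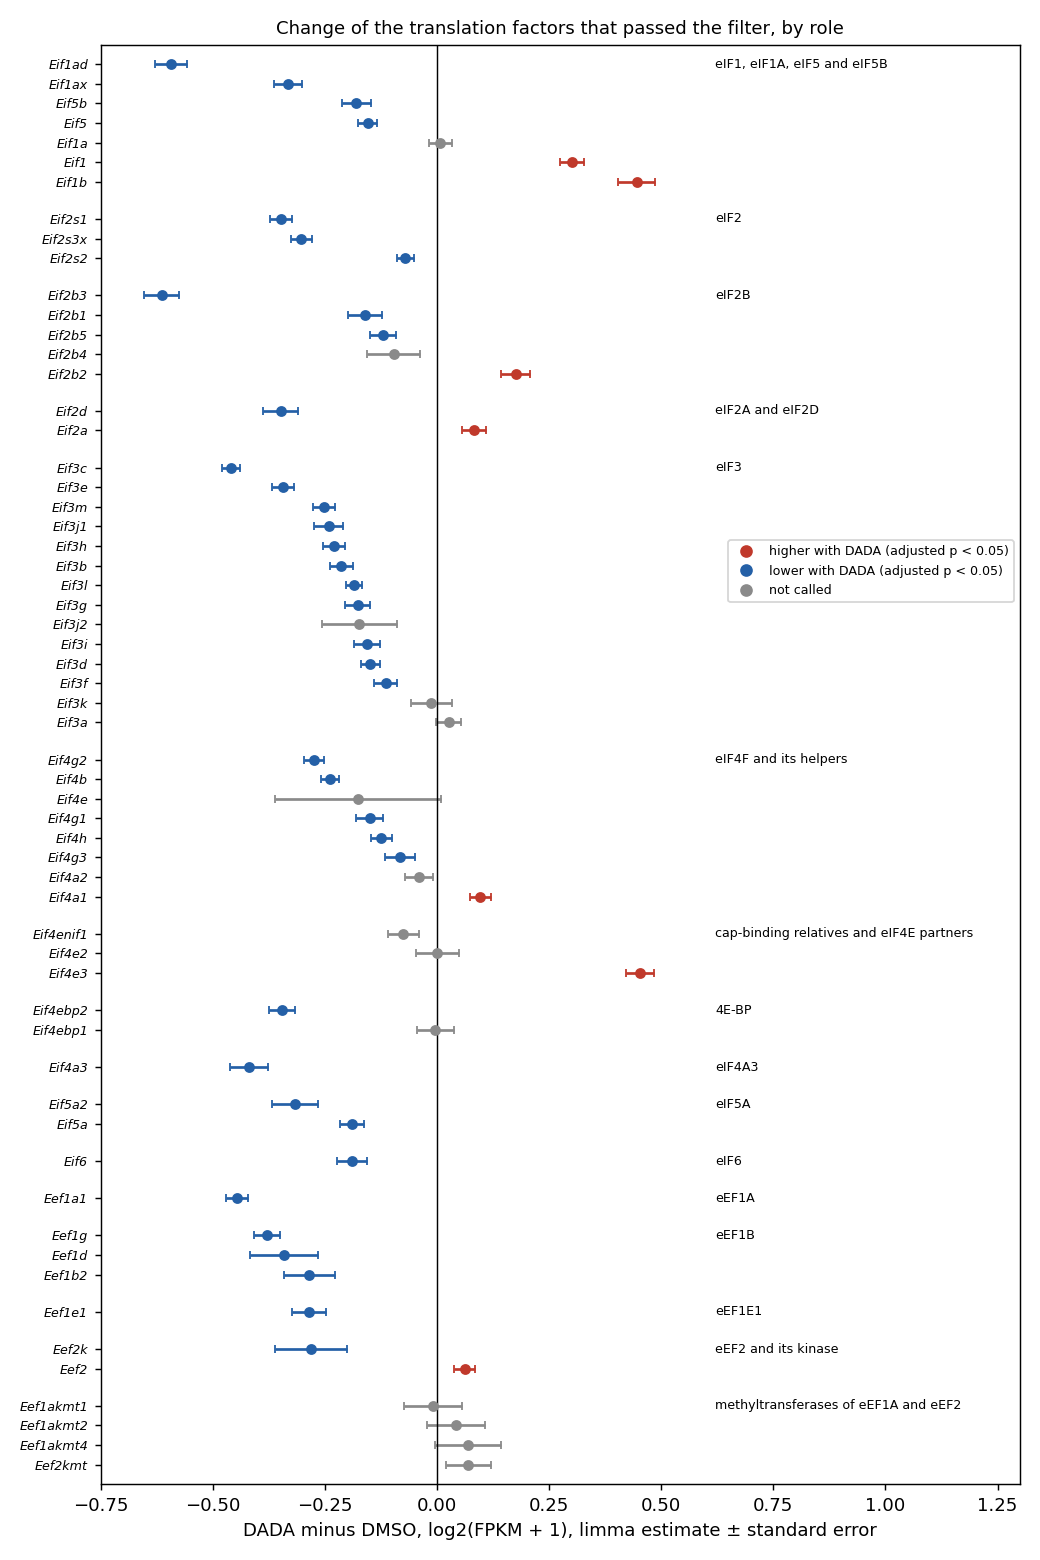
Each point is the DADA minus DMSO difference of 1 gene on the log2(FPKM + 1) scale with its standard error from limma (n = 4 libraries per group), grouped by role; blue points fell, red points rose and gray points were not called. Points lie between -0.61 (*Eif2b3*) and 0.45 (*Eif4e3*), most of them left of 0, and the eIF3 and eEF1B groups hold no red point.

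Most genes of eIF3, the large scaffold on the small subunit, fell. Of its 14 genes, 11 fell (78.6%, beside 35.3% of all genes tested), none rose and 3 were not called, with a median change of -0.181. The groups did not overlap for 11 of the 14 genes (78.6%), the same 11 that fell, beside 60.6% of all genes tested. The summed share of the 14 genes in all FPKM was 0.624%, 0.626%, 0.623% and 0.631% in the DMSO libraries and 0.545%, 0.546%, 0.552% and 0.547% in the DADA libraries.

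*Eif3c* (ENSMUSG00000030738), a subunit of the structural core, had the largest of these falls. It stood at 433, 439, 447 and 446 FPKM with DMSO and at 318, 315, 327 and 322 FPKM with DADA, a fall of 0.46 (SE 0.0205, adjusted p = 2.98e-08). *Eif3e*, at 334 ± 5.19 and 263 ± 7.63 FPKM, fell by 0.34. *Eif3m* fell by 0.25, *Eif3h* by 0.23 and *Eif3b*, which carries an RNA recognition motif, by 0.21. *Eif3l*, *Eif3g*, *Eif3i*, *Eif3d* and *Eif3f* fell by 0.11 to 0.18, with adjusted p between 1.06e-05 and 0.00217 by limma.

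*Eif3a*, the largest subunit, was not among those that fell. Its values were 140.3, 146, 149.6 and 144 FPKM with DMSO and 149, 141, 150.4 and 149.6 FPKM with DADA (difference 0.03, 95% interval -0.04 to 0.09). *Eif3k* also overlapped fully, at 175 ± 10.7 and 174 ± 7.86 FPKM (difference -0.01, 95% interval -0.12 to 0.09). The loosely bound eIF3j comes from 2 closely related mouse genes, between which fragments may be split. *Eif3j1* was at 40.8, 42.0, 41.2 and 42.6 FPKM with DMSO and at 34.8, 36.6, 33.2 and 35.8 FPKM with DADA, a fall of 0.24 (adjusted p = 9.45e-05). *Eif3j2* was at 15.4, 16.9, 16.5 and 15.8 FPKM with DMSO and at 13.3, 13.9, 17.4 and 12.6 FPKM with DADA, of which DADA 3 alone was above the DMSO range. Its difference of -0.17 was not called (adjusted p = 0.0926), and without DADA 3 it was -0.27 with an adjusted p of 0.00101.

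The subunits of the cap-binding complex eIF4F did not share a direction. *Eif4e*, the cap-binding protein itself, was at 38.0, 42.3, 39.3 and 64.4 FPKM with DMSO and at 55.4, 35.8, 36.4 and 34.3 FPKM with DADA. DMSO 4 and DADA 1 stood apart from the other libraries of their groups, and the difference of -0.18 was not called (SE 0.186, adjusted p = 0.425, exact permutation p = 0.457). The value turned on these libraries, at -0.0057 without DMSO 4 (adjusted p = 0.975) and -0.33 without DADA 1 (adjusted p = 0.0947). With both left out, a choice made after seeing the values, it was -0.16 (adjusted p = 0.0153). *Eif4g1*, the main scaffold, was at 109, 114, 117 and 109.9 FPKM with DMSO and at 102, 99.2, 105 and 99.1 FPKM with DADA, a fall of 0.15 (SE 0.03, adjusted p = 0.00138). The groups of *Eif4g1* did not overlap, but the call was lost under quantile normalization.

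The other scaffold genes were called lower as well, *Eif4g3* only at the edge, and neither helicase gene was. *Eif4g2*, a relative of eIF4G that lacks the eIF4E-binding part, was at 208, 211, 209 and 215 FPKM with DMSO and at 178, 169.7, 177 and 172 FPKM with DADA, a fall of 0.27 (adjusted p = 2.24e-06). *Eif4g3* was at 31.0, 29.9, 31.7 and 31.3 FPKM with DMSO and at 29.1, 27.6, 30.1 and 29.9 FPKM with DADA. Its groups overlapped, and its fall of 0.08 was at the edge of the test (adjusted p = 0.049), with adjusted p of 0.0356 to 0.123 when single libraries were left out and the call lost without DMSO 1, 3 or 4 and without DADA 1, 2 or 4.

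*Eif4a1* (ENSMUSG00000059796), the main helicase of eIF4F, was at 606, 607, 587 and 605 FPKM with DMSO and at 633, 667, 635 and 637 FPKM with DADA, a rise of 0.10 (SE 0.0235, adjusted p = 0.00462). All 4 DADA values were above all DMSO values. *Eif4a2*, the second helicase gene, was at 244, 244, 258 and 257 FPKM with DMSO and at 238, 236, 255 and 247 FPKM with DADA (difference -0.04, 95% interval -0.11 to 0.03, not called). Under quantile normalization the difference of *Eif4a2* was -0.09 and was called (limma adjusted p = 0.0489). Both helpers of the helicase fell: *Eif4b* by 0.24 (225 ± 3.99 to 190.2 ± 1.84 FPKM, n = 4 each, limma adjusted p = 3.04e-06) and *Eif4h* by 0.12 (adjusted p = 0.000945).

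The relatives of eIF4E were led by *Eif4e3* (ENSMUSG00000093661), which had the largest rise of all members. This protein binds the cap in another way than eIF4E. It was at 15.8, 16.1, 16.4 and 16.3 FPKM with DMSO and at 22.4, 22.0, 21.9 and 23.4 FPKM with DADA, 1.39 times the DMSO mean (log2 change 0.45, SE 0.0307, adjusted p = 6.17e-07). *Eif4e2*, known as 4EHP and a part of repressor complexes, was at 63.1, 58.2, 56.8 and 56.8 FPKM with DMSO and at 53.6, 60.1, 60.2 and 61.2 FPKM with DADA. Its groups overlapped, with a 95% interval of -0.11 to 0.11 for the difference. *Eif4enif1*, the carrier that takes eIF4E into the nucleus, was not called (-0.08, adjusted p = 0.0756).

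Of the eIF4E inhibitors that mTOR inactivates, *Eif4ebp1* was at 67.5, 66.1, 63.7 and 63.2 FPKM with DMSO and at 65.8, 69.8, 60.8 and 63.7 FPKM with DADA. The DADA values lay on both sides of the DMSO range, and the 95% interval of the difference was -0.10 to 0.09. *Eif4ebp2* was at 26.2, 25.3, 25.2 and 25.1 FPKM with DMSO and at 19.9, 19.8, 20.4 and 19.2 FPKM with DADA, a fall of 0.35 (SE 0.029, adjusted p = 2.98e-06) without overlap. Protein levels and phosphorylation, by which these inhibitors are controlled, were not part of these data.

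*Eif4a3* (ENSMUSG00000025580), whose product marks exon junctions rather than unwinding mRNA for initiation, was at 133, 117, 123 and 129 FPKM with DMSO and at 93.2, 93.9, 89.5 and 97.6 FPKM with DADA, a fall of 0.42 (SE 0.0421, adjusted p = 1.13e-05). Its copies *Eif4a3l1* and *Eif4a3l2* were near 0. *Eif6*, which keeps the large subunit from joining too early, was at 105, 103, 98.2 and 97.6 FPKM with DMSO and at 91.8, 87.9, 85.2 and 89.2 FPKM with DADA, a fall of 0.19 (SE 0.0327, adjusted p = 0.000528).

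eIF5A carries the modified amino acid hypusine and helps the ribosome through difficult sequences. *Eif5a* was at 998, 988, 948 and 975 FPKM with DMSO and at 857, 892, 829 and 849 FPKM with DADA, a fall of 0.19 (SE 0.0272, adjusted p = 0.000147) that was lost under quantile normalization. *Eif5a2* was barely present, at 2.90, 2.94, 2.98 and 3.03 FPKM with DMSO and 2.36, 2.03, 2.20 and 2.14 FPKM with DADA. It fell by 0.32 (adjusted p = 0.000325), a size that the pseudocount of 1 understates at such a level.

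**Figure D3:**
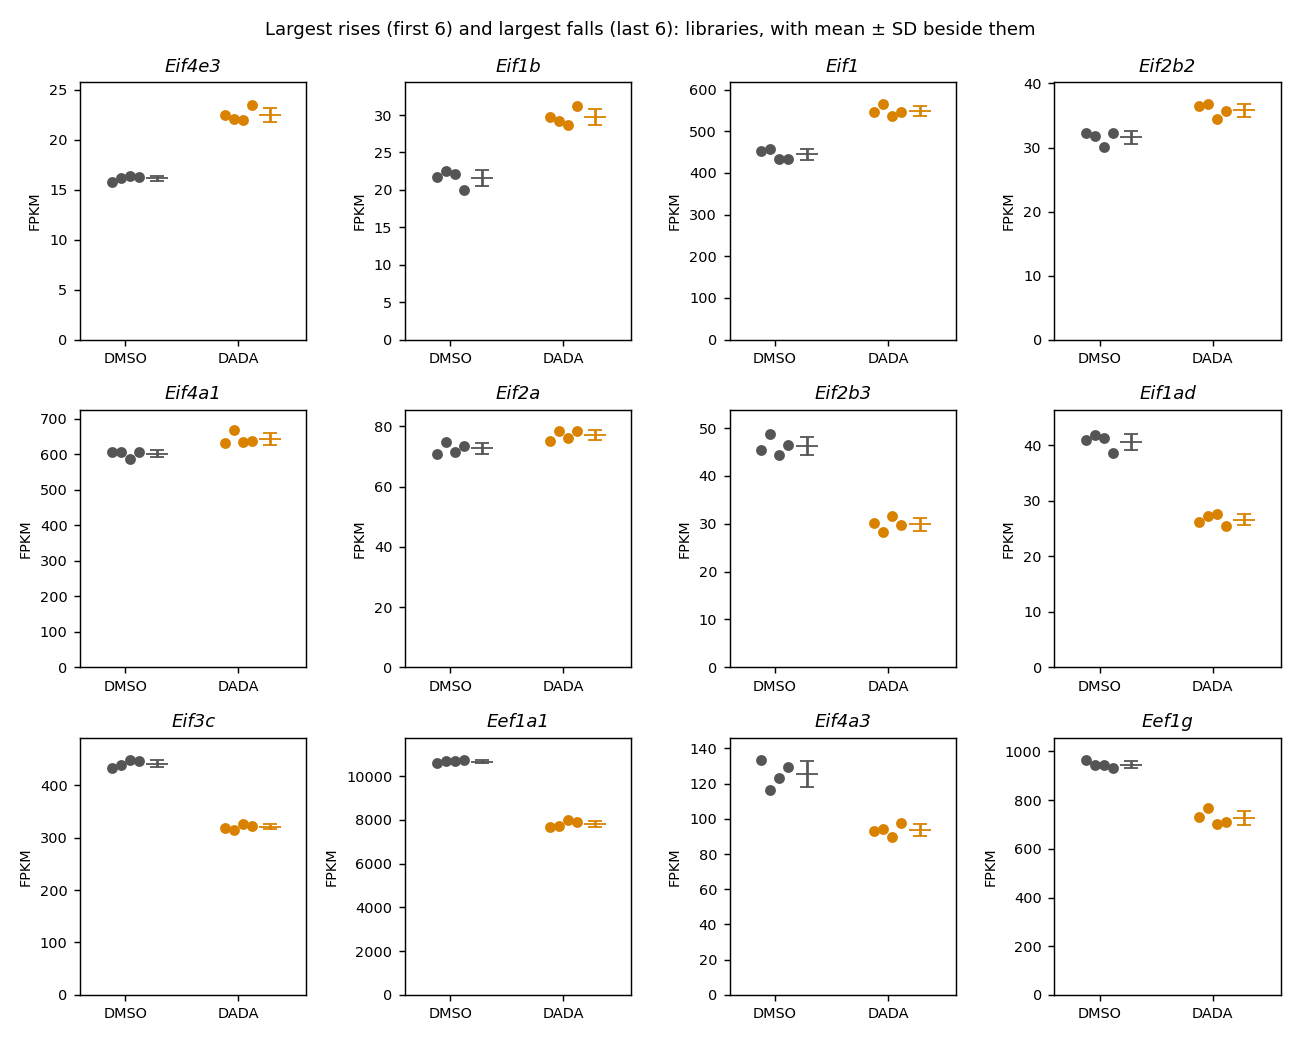
Each panel shows 1 gene, with a point for each library in FPKM on an axis from 0 and the mean ± SD of the 4 libraries beside the points, gray for DMSO and orange for DADA. The first 6 panels are the largest rises and the last 6 the largest falls among called genes, and in all 12 the points of the groups do not overlap; the fall of *Eef1a1* alone is absent under quantile normalization.

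Elongation factors held the most abundant transcript of the whole table. *Eef1a1* (ENSMUSG00000037742), which encodes the carrier of aminoacyl-tRNA, ranked first of all 22520 rows in both groups. It was at 10579, 10665, 10665 and 10735 FPKM with DMSO and at 7693, 7717, 7972 and 7910 FPKM with DADA. Every DADA library lay below every DMSO library, at 0.734 times the DMSO mean (log2 change -0.45, SE 0.0239, adjusted p = 1.11e-07). The fall held under the other scalings but was 0 under quantile normalization, which gives the top row of every library the same value. *Eef1a1* has many processed pseudogenes in the mouse genome, with which fragments may be shared.

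The 3 subunit genes of eEF1B, the exchange factor of eEF1A, all fell. *Eef1g* (ENSMUSG00000071644) was at 966, 943, 944 and 932 FPKM with DMSO and at 731, 767, 701 and 711 FPKM with DADA, a fall of 0.38 (SE 0.0293, adjusted p = 1.6e-06). *Eef1d* was at 226 ± 24.7 and 178 ± 14.2 FPKM and fell by 0.34 (adjusted p = 0.00262), with DMSO 1 at 263 FPKM above the rest. *Eef1b2* was at 619 ± 41.1 and 508 ± 34.3 FPKM and fell by 0.28 (adjusted p = 0.00143). *Eef1e1*, a scaffold of the tRNA synthetase complex, fell by 0.29 (44.4 ± 1.20 to 36.2 ± 1.87 FPKM, n = 4 each, limma adjusted p = 8.58e-05).

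The gene of eEF2, the translocase, did not fall. *Eef2* was at 2158, 2086, 2119 and 2107 FPKM with DMSO and at 2259, 2230, 2163 and 2186 FPKM with DADA, a rise of 0.06 (SE 0.0228, adjusted p = 0.0365). The lowest DADA value was just above the highest DMSO value, and leaving out single libraries gave adjusted p of 0.0245 to 0.103, with the call lost without DMSO 2, 3 or 4 and without DADA 1, 2 or 4. With equal library totals the rise was 0.09 (adjusted p = 0.00193), and with quantile normalization 0.23 (adjusted p = 5.5e-05). *Eef2k*, the kinase that inactivates eEF2, was at 6.79, 7.28, 6.96 and 5.89 FPKM with DMSO and at 5.25, 4.97, 6.34 and 4.94 FPKM with DADA. DADA 3 lay inside the DMSO range, and the fall was 0.28 (SE 0.08, adjusted p = 0.0107, exact permutation p = 0.0571).

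None of the 4 tested genes for methyltransferases of eEF1A and eEF2 was called by limma. Their differences ran from -0.01 (*Eef1akmt1*) over 0.04 (*Eef1akmt2*) and 0.07 (*Eef1akmt4*) to 0.07 (*Eef2kmt*), the widest interval being -0.10 to 0.23 for *Eef1akmt4*. These transcripts lay between 7.73 and 26.9 FPKM with DMSO.

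Where 2 genes encode the same or a related factor, their ratio was compared between the groups with exact permutation tests over the 70 assignments of the libraries. With 4 against 4 libraries the smallest p is 0.0286, which 6 of 11 pairs reached, and after adjustment over the 11 pairs none was under 0.05 (lowest 0.0524). *Eif1a* made up 67.2% to 68.5% of the summed FPKM of *Eif1a* and *Eif1ax* with DMSO and 72.6% to 73.9% with DADA. *Eif4ebp2* made up 27.7% to 28.4% of the 4E-BP pair with DMSO and 22.1% to 25.1% with DADA. For both pairs the groups did not overlap.

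Smaller shifts without overlap were seen in further pairs. *Eif1b* went from 4.40% to 4.87% of the eIF1 transcripts with DMSO to 4.92% to 5.42% with DADA. *Eif4a2* went from 28.7% to 30.5% of the eIF4A pair to 26.1% to 28.6%, and *Eif4g2* from 64.1% to 66.2% of its pair with *Eif4g1* to 62.7% to 63.5%. *Eif5a2* went from 0.29% to 0.313% of the eIF5A pair to 0.227% to 0.275%, but its log2 ratio did not reach the smallest p (exact permutation p = 0.0571). Because *Eef1a2* was at 0, the pair of *Eef1a2* and *Eef1a1* repeats the fall of *Eef1a1*. Both pairs with *Eif4e* overlapped between the groups. *Eif4e3* made up 26.6% ± 4.41 and 36.3% ± 5.15 of its pair with *Eif4e* (SD, n = 4 each, exact permutation p = 0.0857).

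**Figure D4:**
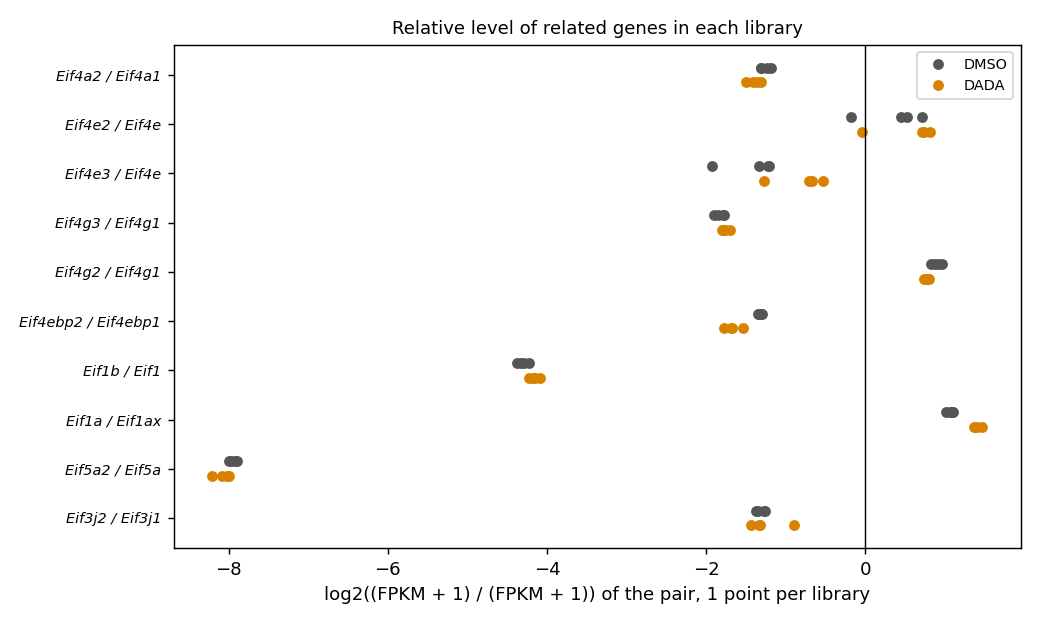
Each point is 1 library, gray for DMSO and orange for DADA, and gives the log2 ratio of the FPKM + 1 values of the pair of genes named at the left. The groups separate for *Eif1a* over *Eif1ax* and for *Eif4ebp2* over *Eif4ebp1*, and overlap for *Eif4e2* over *Eif4e*, *Eif3j2* over *Eif3j1* and *Eif4g3* over *Eif4g1*.

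Other genes of translation were counted in the same fit, from lists made with earlier results of these data known. Cytosolic ribosomal proteins were mostly lower, with 58 of 82 lower (70.7%, beside 35.3% of all genes tested), 3 higher (3.66%, beside 30.9%) and a median of -0.188. *Rpl21* (-0.73) and *Rps27l* (-0.64) fell most, and *Rpl37a* (0.15) and *Fau* (0.13) rose most among those called, and several of these genes have pseudogenes with which fragments may be shared. Of the 20 cytosolic aminoacyl-tRNA synthetases, which charge tRNAs, 16 fell (80%) and 2 rose (10%), with a median of -0.257. *Wars1* (-0.58) and *Hars1* (-0.53) had the largest falls, while *Qars1* (0.24) was among those that rose.

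Of 8 termination and recycling factors, 4 fell and 1 rose, and the share called was 62.5%, beside 66.2% of all genes tested. The release factor genes *Etf1* (178 ± 3.90 to 128 ± 2.09 FPKM, log2 change -0.47) and *Gspt1* (-0.44) fell most, and *Hbs1l*, a ribosome rescue factor, rose by 0.31. Among 19 poly(A)-binding proteins, eIF4F regulators and helicases, 12 fell and 1 rose, and 68.4% were called. *Bzw2*, a mimic of eIF5, fell by 0.78 (88.3 ± 1.81 to 51.0 ± 1.03 FPKM), *Dhx29*, a helicase of scanning, fell by 0.58, and *Paip2*, which holds poly(A)-binding protein back, rose by 0.47 (73.3 ± 8.09 to 101.1 ± 3.15 FPKM).

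Of the 9 enzymes that place hypusine on eIF5A or diphthamide on eEF2, 4 fell and none rose by limma, so that 44.4% were called, less than the 66.2% of all genes tested. *Dph1* (-0.54) and *Dph5* (-0.39) fell most. Neither hypusine enzyme was called (*Dhps* -0.10, *Dohh* -0.12). Of 11 mitochondrial translation factors, 7 fell (63.6%, beside 35.3% of all genes tested), led by *Mtrf1* (-0.44) and *Gfm1* (-0.39), and *Mtif3* rose by 0.30 (adjusted p = 0.045). Of 4 selenocysteine factors, *Pstk* (-0.24) and *Eefsec* (-0.16) fell, 50% of the list. Over all genes tested, 35.3% were lower and 66.2% were called.

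The last list holds genes that control the phosphorylation of eIF2 alpha. Of 6 kinases and phosphatase subunits, 4 rose (66.7%, beside 30.9% of all genes tested) and 1 fell (16.7%, beside 35.3%), with a median of 0.466. *Eif2ak2*, the interferon-induced kinase PKR, rose from 7.99 ± 0.384 to 27.3 ± 1.18 FPKM (log2 change 1.66, n = 4 each, limma adjusted p = 5.4e-10), and *Eif2ak3*, the endoplasmic reticulum kinase PERK, from 9.21 ± 0.530 to 15.2 ± 0.324 FPKM (0.66). The phosphatase subunits *Ppp1r15a* and *Ppp1r15b* rose by 0.60 and 0.33. *Eif2ak1*, the heme-regulated kinase, fell by 0.10 (adjusted p = 0.0223), and *Eif2ak4*, the amino acid sensor GCN2, was not called (-0.02).

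**Figure D5:**
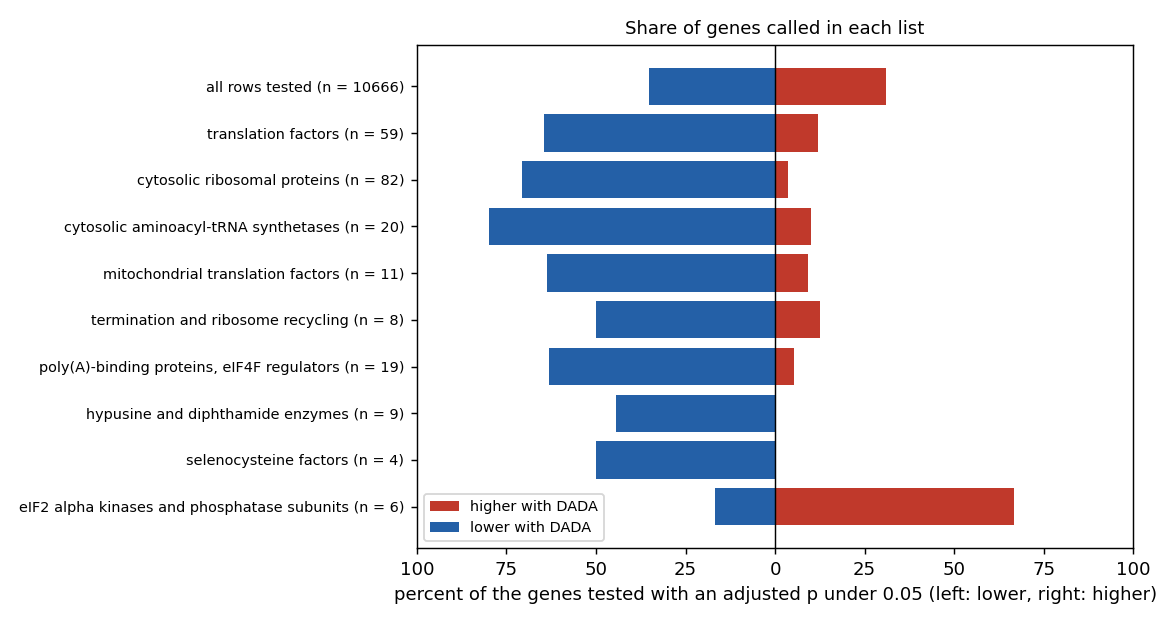
Bars give the percent of tested genes of each list with an adjusted p under 0.05, lower with DADA to the left in blue and higher to the right in red, with the number tested beside each name. Over all genes tested the bars are 35.3% and 30.9%, over the translation factors 64.4% and 11.9%, and the eIF2 alpha kinases and phosphatase subunits are the list with the longer bar on the right.

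Among the 9 factors that textbooks count as TOP mRNAs (*Eef1a1*, *Eef1b2*, *Eef1d*, *Eef1g*, *Eef2*, *Eif3e*, *Eif3f*, *Eif3h* and *Eif4b*), 8 fell (88.9%, beside 35.3% of all genes tested), *Eef2* rose, and the median change was -0.284, beside -0.0196 over all genes tested. Of the 5 with a RefSeq promoter, 2 had a pyrimidine run at the annotated start (*Eef1a1* and *Eif3f*). *Eef2*, which rose, and *Eef1b2* and *Eif4b*, which fell, had none there.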

How the data were processed

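The authors deposited 1 table of FPKM values with 8 columns, 4 libraries each of DMSO and DADA, and groups were taken from the sample titles. Submitters' processing notes name CASAVA 1.8.2, FastQC 0.11.9, HISAT2 2.0.5, StringTie 1.3.3, SAMtools 0.1.18 and Picard 1.41, and list a human and a mouse (GRCm39) build without their roles. The labels and the study's methods name different library kits, and whether strand was used in counting is not given in the sources used here. Coordinates are given only for the starts taken from RefSeq promoters, in the older build GRCm38.p6.

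Between 44% and 51.6% of low values lay within 0.1 of a whole number of fragments, so depth could only be estimated and counts were not tested. Genes with at least 1 FPKM in at least 4 libraries (10666 of 22520 rows, 165 of them assembled transcripts without a mouse gene identifier) were tested as log2(FPKM + 1) with limma 3.58.1 in R 4.3.3 (lmFit, 1 term for DADA, eBayes with trend, Benjamini-Hochberg), with calls at an adjusted p under 0.05 and 95% intervals without adjustment. Ratios of related genes were tested by two-sided exact permutation. Figures were drawn with matplotlib 3.10.9 in Python 3.11.15.

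Values in every library are given for the 6 largest rises and 6 largest falls among called members that averaged 5 FPKM or more in a group, a set of core factors and the partners of the related pairs, and of other lists the 2 largest changes in each direction, of which some are not reported here. Values of *Eif3a* in every library were added after they were seen. The members follow a rule on gene names, and that rule and the lists were chosen with earlier results of these data known. Alternatives were a pseudocount of 0.1, no filter or a mean of 5 FPKM, 3 other scalings, no trend, the replicate number as a block, no assembled transcripts, each library left out and, added after seeing the data, DMSO 4 and DADA 1 left out together.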

Additional observations from a re-analysis of the deposited data

Results flagged for a closer look

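In 7 of the 118 groups of 4 libraries looked at (59 genes in each of both treatments), 1 library stood so far from the other 3 that its gap to the nearest of them, as a share of the whole range, was above Dixon's 95% critical value, where chance gives about 1 in 20 (5.9 of 118). *Eif4e* was flagged in both treatments. DMSO 4 had 64.4 FPKM of *Eif4e* against 38.0 to 42.3 in the other DMSO libraries (0.837 of the range), and DADA 1 had 55.4 FPKM against 34.3 to 36.4 (0.899). In the same DADA 1 library, *Eif4e2* was low, at 53.6 FPKM against 60.1 to 61.2 (0.862). The remaining gaps were small in FPKM. *Eif4ebp2* was at 26.2 FPKM in DMSO 1 against 25.1 to 25.3 (0.853). *Eif4a1* was at 587 FPKM in DMSO 3 against 605 to 607 (0.927) and at 667 FPKM in DADA 2 against 633 to 637 (0.879), and *Eif3a* was at 141 FPKM in DADA 2 against 149 to 150.4 (0.875).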

How the results depend on the processing

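Over all alternatives, 35 to 40 translation factors were called lower and 5 to 7 higher. The cause of the changes listed here was not tested unless stated. *Eef1a1* went from a fall to 3.199e-15 under quantile normalization, which by construction gives the top row of each library 1 value, and *Eif4g1*, *Eif4g3* and *Eif5a* were no longer called there (-0.07, -0.07 and -0.03). Under the same setting *Eif6* was -0.12, *Eif2a* 0.13, *Eif4a1* 0.19 and *Eef2* 0.23, and with equal totals *Eef2* was 0.09 and *Eif4g3* -0.05. The shares of called genes that were higher were 46.7% as reported, 51.6% with equal totals, 47.4% with median-ratio scaling and 42.2% with quantile normalization. *Eef2* lost its call under 10 of 18 alternatives and *Eif4g3* under 12. The differences of *Eif4ebp1*, *Eif1a* and *Eif4e2*, none of them called, changed sign in places: *Eif4ebp1* was 0.00074 with median-ratio scaling, 0.032 with quantile normalization and 0.028 with equal totals, and ranged from -0.038 to 0.027 with single libraries left out, over which *Eif1a* ranged from -0.0081 to 0.028 and *Eif4e2* from -0.019 to 0.043. Over the same settings 37 to 40 factors were called lower, 5 to 7 higher and 1 to 2 selenocysteine factors in all. Only 1 of the 2 selenocysteine factors was called without DMSO 4 and DADA 1. Ratios of related genes, none under 0.05 after adjustment as reported, passed with a pseudocount of 0.1 (*Eif4a2* to *Eif4a1* -0.14, *Eif4g2* to *Eif4g1* -0.12, *Eif4ebp2* to *Eif4ebp1* -0.36, *Eif1b* to *Eif1* 0.16, *Eif1a* to *Eif1ax* 0.35, *Eif5a2* to *Eif5a* -0.24, *Eef1a2* to *Eef1a1* 0.45) and with equal totals (-0.14, -0.12, -0.34, 0.14, 0.34, -0.14 and 0.41 in the same order), because *Eif5a2* to *Eif5a* then also reached the smallest p of 0.0286.

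With the replicate number as a block, 44 of the 45 calls were shared, *Eef2* was lost and *Eif4enif1* was added. Same-numbered libraries did not deviate together (correlations 0.10, -0.12, -0.09 and 0.08 across genes), and not every library correlated best with its own number. Deviations of 4 libraries from their group mean cannot show whether same-numbered libraries share a mouse or batch, so pairing remains unknown. Depth was only estimated, and 4 libraries a group limit exact tests to a p of 0.0286.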
